A study of Mus musculus with 20 samples.

Results

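The 49 genes described here encode the machinery that copies DNA and enzymes that supply it with deoxynucleotides. They fall into 5 genes of origin licensing, 13 of the replicative helicase, 6 of the sliding clamp and its loader, 9 of the polymerases, 5 of strand binding and joining, 5 of nucleotide supply and 6 of chromatin copying and repair. They were picked by name from the deposited gene table, whose unit is FPKM (a fragment count scaled to gene length and to sequencing depth, so that levels can be compared between genes), and kept where FPKM was at least 1 in at least 5 of 20 libraries. All 49 were in the table and all 49 were kept, among 12752 genes kept of 54532. The gene nearest to the limit was Fen1, which reached 1 FPKM in 7 libraries, and every other member did so in at least 19.

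RNA was taken from articular chondrocytes, the cells that make and maintain joint cartilage, of 6-week-old mice. The cells had been kept for 48 h with vehicle (DMSO), with 20 µM 25-hydroxycholesterol (25HC), with 20 µM 25-hydroxycholesterol-3-sulfate (25HC3S) or with 2 µM GW3965, and each of the 4 groups held 5 libraries. The labels name no genotype, strain or transgene, and nothing in them ties a replicate to its own animal or culture. The p-values therefore speak of the spread among these libraries only, and that spread may be technical. 25HC is an oxysterol, the product of cholesterol 25-hydroxylase, 25HC3S is the same sterol with a sulfate on its 3 position, and GW3965 is a synthetic, non-steroidal agonist of the liver X receptors, nuclear receptors that sense oxysterols.

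Cells license their origins before S phase, when the origin recognition complex, Cdc6 and Cdt1 load rings of Mcm2 to Mcm7 onto DNA. Cdc45 and the GINS complex then turn each ring into an active helicase, and polymerases held by the clamp Pcna copy both strands from deoxynucleotides that ribonucleotide reductase makes. Many of these genes are known targets of E2F transcription factors, which are freed when G1 cyclin kinases inactivate the retinoblastoma protein, so their messages are abundant in cycling cells and scarce in resting ones. Adult articular chondrocytes divide rarely in cartilage but enter the cell cycle in culture. In bulk RNA, fewer cells in S phase and less RNA of these genes per cell cannot be told apart.

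The libraries held 14653777 to 19365220 fragments in genes, of which 24385 to 43491 lay in the 49 genes. Vehicle replicates 2, 3 and 4 and 25HC3S replicate 1 stand apart from the other 16 libraries. In these 4, 237 to 1171 genes had exactly 1 fragment, against 1808 to 2057 elsewhere, and 16346 to 19648 genes were detected, against 20847 to 21607. Mitochondrial genes took 0.889% to 1.41% of the fragments elsewhere. Vehicle replicate 2 lay below that, at 0.369%. Vehicle replicates 3 and 4 and 25HC3S replicate 1 lay above it, at 4.07%, 3.60% and 3.14%. In the same order these 3 held Mki67, 1 of the mitosis genes taken up below, at 43.0, 42.9 and 36.3 FPKM. Mki67 stood at 14.5 FPKM in Vehicle replicate 2 and at 10.0 to 19.6 in the other 16 libraries. Counts of calls among the 49 genes, and values that change without these 4 libraries, are therefore given without them too, a choice made after their values were seen, which leaves 2 Vehicle and 4 25HC3S libraries.

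The promoters of the genes are described first. The letters that E2F factors are known to bind were not used to choose the genes. Many of the genes are known E2F targets, though, so the shares of these letters are not independent of that choice. RefSeq promoter windows (build GRCm38.p6, 250 bases before to 50 after the start) were at hand for 41 of the 49 genes, 50 windows in all. The E2F letters were TTCCCGC and its variants TTGGCGC and also TTCGCGC and, last, TTGCCGC, searched on both strands with overlapping matches counted. At least 1 of them was present in 65.9% of these 41 genes. They were present in 19.9% of the 9141 tested genes with a window. Of all 27025 genes with a window 10.9% held them, and of all 32851 windows of the same length 9.57%. CCAAT was present in 61.0% of the members and 42.8% of tested genes, and TTTGAA, the letters of the cell-cycle element CHR, in 17.1% and 14.0%. Among 27 mitosis genes with a window, TTTGAA was present in 81.5% and the E2F letters in 25.9%. A match describes these letters only and shows no binding.

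The promoters shown next belong to 6 of the genes chosen to represent the roles. Their E2F matches run from several that overlap to none. The 250 bases before each RefSeq start are given. Each is written 5′ to 3′ on the strand of its gene with the E2F letters, on either strand, in capitals. The positions are chr8:75109259-75109508 (+ strand) for Mcm5, chr1:128359706-128359955 (-) for Mcm6, chr12:24708004-24708253 (+) for Rrm2, chr11:98907901-98908150 (+) for Cdc6, chr6:88898781-88899030 (-) for Mcm2 and chr2:132253181-132253430 (-) for Pcna. RefSeq and the deposited coordinates place the start at the same base for 1 of the 6, Mcm2. For Cdc6 the RefSeq start lies 350 bases inside the deposited gene, so that all 250 bases shown are within it, and 134 of the bases shown for Pcna and 13 of those for Rrm2 are within the deposited gene.
Mcm5: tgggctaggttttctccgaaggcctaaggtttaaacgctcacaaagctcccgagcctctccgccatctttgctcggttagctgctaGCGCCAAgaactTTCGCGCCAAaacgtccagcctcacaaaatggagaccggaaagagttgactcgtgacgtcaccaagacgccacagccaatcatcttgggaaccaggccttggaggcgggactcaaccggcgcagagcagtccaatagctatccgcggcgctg
Mcm6: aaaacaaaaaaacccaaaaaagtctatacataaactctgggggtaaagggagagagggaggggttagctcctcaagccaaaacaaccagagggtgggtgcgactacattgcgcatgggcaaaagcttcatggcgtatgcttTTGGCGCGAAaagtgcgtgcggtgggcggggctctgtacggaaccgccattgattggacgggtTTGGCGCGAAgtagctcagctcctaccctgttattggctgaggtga
Rrm2: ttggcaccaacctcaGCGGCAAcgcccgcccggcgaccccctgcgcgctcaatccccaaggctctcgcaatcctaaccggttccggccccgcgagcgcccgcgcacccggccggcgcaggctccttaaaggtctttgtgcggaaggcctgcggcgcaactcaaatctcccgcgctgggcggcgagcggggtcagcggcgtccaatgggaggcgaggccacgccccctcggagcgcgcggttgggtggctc
Cdc6: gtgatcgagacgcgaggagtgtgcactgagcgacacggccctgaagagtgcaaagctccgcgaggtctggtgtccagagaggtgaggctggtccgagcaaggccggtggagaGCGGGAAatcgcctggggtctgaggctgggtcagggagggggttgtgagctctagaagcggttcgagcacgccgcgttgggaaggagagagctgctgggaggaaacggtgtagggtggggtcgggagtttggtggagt
Mcm2: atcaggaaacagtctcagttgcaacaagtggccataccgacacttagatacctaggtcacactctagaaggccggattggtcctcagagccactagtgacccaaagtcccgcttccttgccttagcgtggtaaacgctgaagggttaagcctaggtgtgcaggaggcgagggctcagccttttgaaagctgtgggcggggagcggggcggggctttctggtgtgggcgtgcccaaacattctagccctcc
Pcna: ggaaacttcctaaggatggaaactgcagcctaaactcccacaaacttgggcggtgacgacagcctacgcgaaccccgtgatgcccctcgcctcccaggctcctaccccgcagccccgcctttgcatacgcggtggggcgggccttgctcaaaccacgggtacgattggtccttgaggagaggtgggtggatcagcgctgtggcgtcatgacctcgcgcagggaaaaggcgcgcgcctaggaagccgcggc

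Mcm5 held 3 matches, 2 of them overlapping, and Mcm6 held 4 in the letters shown and 1 after the start. Rrm2 and Cdc6 held 1 each. Mcm2 and Pcna held none, which says only that these letters are not in this window.

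Genes of every role fell with GW3965 against at least 1 of the other groups, and none rose. The 49 genes took 0.138% to 0.150% of all fragments in the GW3965 libraries (median 0.147%). They took 0.188% to 0.209% with 25HC (median 0.207%), 0.181% to 0.234% with 25HC3S (median 0.214%) and 0.166% to 0.214% with vehicle (median 0.205%). All 5 GW3965 libraries lay below all 15 others, and the lowest of those 15 were Vehicle replicates 4 and 3 and 25HC3S replicate 1, all of which stand apart.

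**Figure D1:**
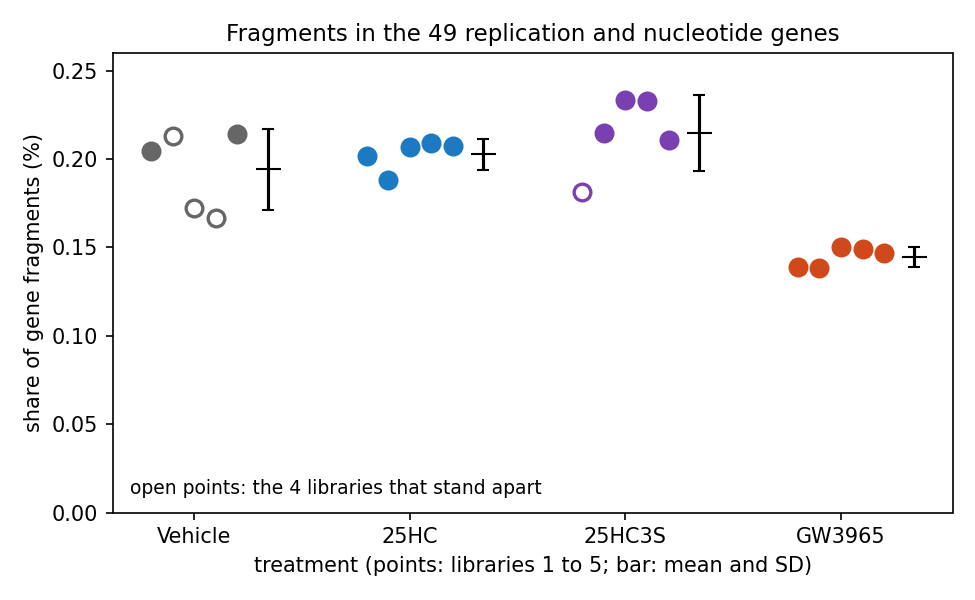
Share of all gene fragments that fell in the 49 genes (%, y axis) in each library, by treatment (x axis); bars give the mean and SD of 5 libraries, and open points mark the 4 libraries that stand apart. The GW3965 libraries lie at 0.138% to 0.150%, below every other library, of which the lowest is Vehicle replicate 4 at 0.166%.

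Differences between groups were tested with limma on log2(FPKM + 1) over all 12752 genes, and a gene was called at a Benjamini-Hochberg adjusted p under 0.05. The log2 differences below are on that scale, with their standard errors (SE), and understate the change of low genes. Against 25HC, a comparison whose 2 groups hold none of the 4 libraries, 17 of the 49 genes fell with GW3965 and 0 rose, where 0.894% of all tested genes were called lower and 0.847% higher. The median difference of the members was -0.37, against 0.01 over all genes tested, and all 49 differences were below 0. In 36 of the 49 genes every GW3965 library lay below every 25HC library, which held for 5.72% of all tested genes.

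Against 25HC3S, 25 of the 49 genes fell and 0 rose with GW3965, with 2.13% of all genes called lower and 2.51% higher. The median was -0.44, against 0.00 over all genes, and 30 of the 49 genes did not overlap (5.85% of all genes). Against Vehicle, 20 fell and 0 rose, with 2.97% of all genes called lower and 3.49% higher. There the median was -0.26, against 0.02, and 18 genes did not overlap (3.29% of all genes). These comparisons share the GW3965 libraries, so they are set side by side and are not separate evidence.

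More members were called without the 4 libraries, in fits that again share 1 estimate of the spread over all groups. Then 41 fell against 25HC (6.82% of all genes called lower and 6.3% higher), 45 against 25HC3S (8.59% and 9.27%) and 37 against Vehicle (3.79% and 3.98%), and 0 rose in any of them. Pold2, Rpa3 and Fen1 were called in none of these 6 counts.

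**Figure D2:**
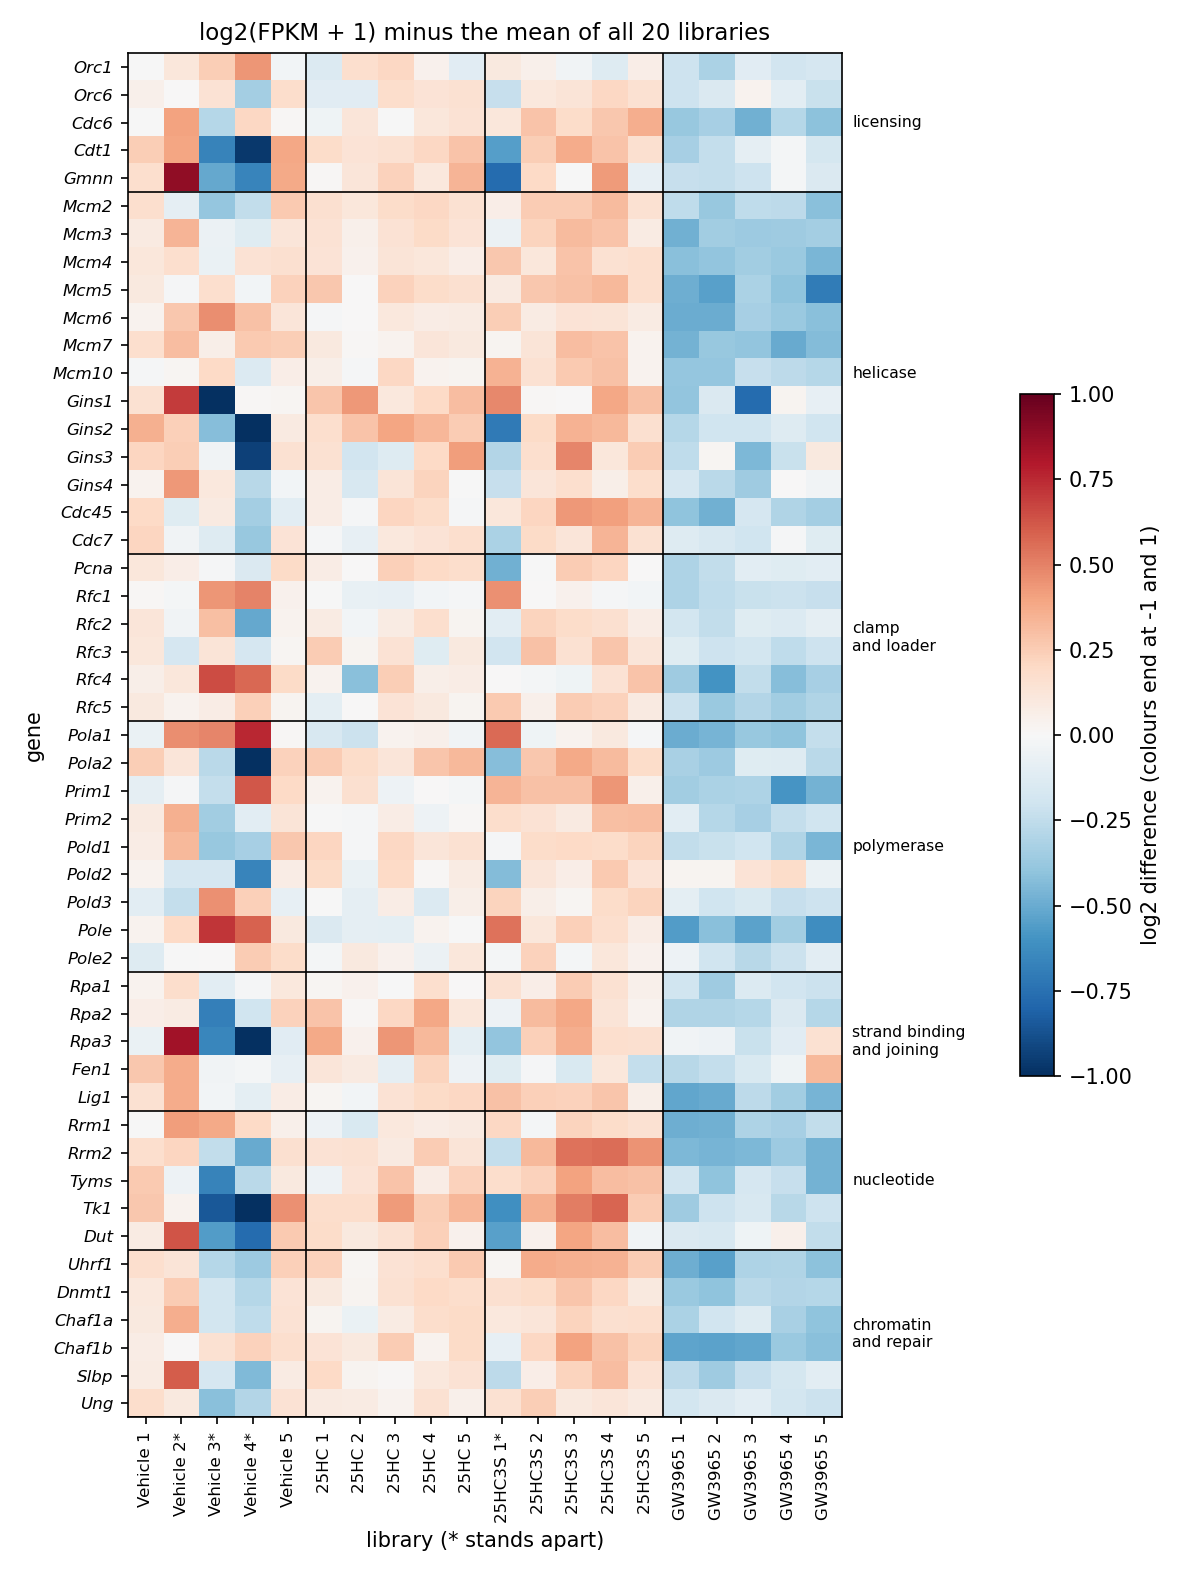
log2(FPKM + 1) of each of the 49 genes (rows, by role) in each of the 20 libraries (columns; an asterisk marks those that stand apart), minus the mean of the gene over all 20; the colour scale is a log2 difference that ends at -1 and 1. The 5 GW3965 columns are below the mean in nearly every row, while Vehicle replicates 3 and 4 and 25HC3S replicate 1 mix rows far above with rows far below it.

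Origin licensing is carried out by Orc1 and Orc6, subunits of the origin recognition complex, by the loaders Cdc6 and Cdt1, and is held in check by Gmnn (geminin), which inhibits Cdt1. Of these 5 genes, Cdc6 fell with GW3965 in all 3 comparisons. Cdc6 (chr11:98907801-98923940 in the deposited coordinates) stood at 2.91, 4.18, 2.21, 3.52 and 2.94 FPKM with vehicle, 2.79, 3.24, 2.89, 3.24 and 3.33 with 25HC, 3.24, 3.77, 3.44, 3.71 and 4.02 with 25HC3S and 2.01, 2.11, 1.8, 2.21 and 1.94 with GW3965, each run of 5 in the order of replicates 1 to 5. Every GW3965 library lay below all 15 others, though Vehicle replicate 3 equals GW3965 replicate 4 as rounded here. The log2 difference was -0.44 ± 0.10 (SE) against 25HC (adjusted p = 0.0175), -0.62 ± 0.10 against 25HC3S (adjusted p = 0.000334) and -0.44 ± 0.10 against Vehicle (adjusted p = 0.00881). The call against 25HC was lost in the fits without 25HC replicate 4, 25HC replicate 5 or GW3965 replicate 3, with adjusted p up to 0.0586 there.

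Orc1 fell against Vehicle (-0.35 ± 0.10, adjusted p = 0.0339), from 1.72 ± 0.375 to 1.12 ± 0.110 FPKM (mean ± SD, n = 5; limma). Its 5 GW3965 libraries lay below its 5 Vehicle libraries. That call was lost without the 4 libraries (adjusted p = 0.342) and in 7 of the 10 fits that left out 1 library of either group, namely Vehicle replicate 3 or 4 or any GW3965 library (adjusted p = 0.0521 to 0.0903). Orc6 stood at 6.18 to 9.48 FPKM over all libraries and was not called with all of them, while without the 4 it fell against 25HC3S (-0.28 ± 0.07, adjusted p = 0.00951).

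Cdt1 stood at 9.91, 11.1, 4.78, 3.70 and 11.0 FPKM with vehicle, 9.41, 9.08, 9.20, 9.60 and 10.2 with 25HC, 5.25, 9.87, 10.9, 10.2 and 9.29 with 25HC3S and 6.29, 6.79, 7.63, 8.04 and 7.11 with GW3965. Vehicle replicates 3 and 4 and 25HC3S replicate 1, 3 of the libraries that stand apart, were the lowest of all 20, below the GW3965 libraries. With all libraries Cdt1 differed by -0.05 ± 0.23 from Vehicle (adjusted p = 0.883), and without the 4 by -0.49 ± 0.08 (adjusted p = 0.000562).

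Gmnn showed the same picture, at 9.97, 17.0, 5.85, 5.18 and 11.7 FPKM with vehicle, 8.82, 9.60, 10.4, 9.47 and 11.3 with 25HC, 4.73, 10.2, 8.75, 12.1 and 8.21 with 25HC3S and 7.34, 7.26, 7.47, 8.61 and 7.80 with GW3965. Its difference from Vehicle was -0.22 ± 0.24 with all libraries (adjusted p = 0.503) and -0.44 ± 0.11 without the 4 (adjusted p = 0.0260). Against 25HC every GW3965 library lay below every 25HC library for both Cdt1 (-0.36) and Gmnn (-0.33), and neither was called there with all libraries.

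The helicase genes held the largest block of calls. Mcm2 to Mcm7 form the ring that unwinds DNA, Mcm10 helps to activate it, Cdc45 and Gins1 to Gins4 complete the active helicase, and Cdc7 is the kinase that fires origins. Of these 13 genes 8 fell against 25HC (Mcm2, Mcm3, Mcm4, Mcm5, Mcm6, Mcm7, Mcm10 and Cdc45), with a median of -0.48 over the 13. Mcm5 (chr8:75109569-75128439) had the largest fall of all 49 genes in that comparison. It stood at 18.8, 17.3, 19.8, 17.2 and 20.8 FPKM with vehicle, 21.3, 17.6, 20.7, 20.0 and 19.7 with 25HC, 18.6, 21.4, 21.7, 22.2 and 19.8 with 25HC3S and 12.2, 11.7, 13.9, 13.0 and 10.4 with GW3965. The GW3965 libraries did not overlap any other group, and Mcm5 differed by -0.66 ± 0.08 from 25HC (adjusted p = 4.3e-05), -0.72 ± 0.08 from 25HC3S (adjusted p = 5.1e-06) and -0.58 ± 0.08 from Vehicle (adjusted p = 9.8e-05).

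Mcm6 stood at 25.2, 29.8, 34.3, 30.4 and 26.9 FPKM with vehicle, 24.4, 24.7, 26.6, 26.0 and 26.1 with 25HC, 29.3, 26.1, 27.1, 27.1 and 26.1 with 25HC3S and 17.1, 17.1, 19.4, 18.8 and 18.1 with GW3965. It was the most abundant of the Mcm genes by FPKM, and its 4 highest libraries were the 4 that stand apart. Its fall was -0.66 ± 0.07 against Vehicle (adjusted p = 7.4e-06) and -0.47 ± 0.07 against 25HC (adjusted p = 0.000499). With those 4 left out, the fall against Vehicle was -0.50, and the call held.

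Mcm2, the Mcm gene shown above without E2F letters in its window, stood at 12.2, 10.0, 7.97, 8.86 and 13.1 FPKM with vehicle, 12.1, 11.7, 12.3, 12.6 and 12.0 with 25HC, 11.3, 13.0, 13.0, 13.6 and 12.0 with 25HC3S and 8.85, 8.01, 8.82, 8.76 and 7.76 with GW3965. Vehicle replicate 3 lay within the GW3965 range and Vehicle replicate 4 just above it, while every 25HC and 25HC3S library lay above it. Mcm2 fell by 0.48 on the log2 scale against 25HC (adjusted p = 0.0101) and was not called against Vehicle (-0.26 ± 0.10, adjusted p = 0.0982). Without Vehicle replicate 3 it was called there (-0.34, adjusted p = 0.0296), as it was without all 4 libraries (-0.53 ± 0.05, adjusted p = 1.3e-05).

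Mcm3, Mcm4, Mcm7 and Mcm10 fell in all 3 comparisons with GW3965. Mcm4 stood at 12.5 to 13.6 FPKM with GW3965 and 16.8 to 21.6 in the other 15 libraries. Its difference from 25HC was -0.49 ± 0.06 (adjusted p = 2.2e-05). Mcm7 fell by 0.64 against Vehicle and by 0.51 against 25HC on the log2 scale. Mcm10 was a low gene, at 1.41 to 1.69 FPKM with GW3965 and 1.88 to 3.00 elsewhere.

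Cdc45, the helicase subunit that is loaded as origins fire, stood at 4.86, 3.68, 4.43, 3.02 and 3.73 FPKM with vehicle, 4.36, 4.06, 4.91, 4.80 and 4.04 with 25HC, 4.5, 4.90, 5.89, 5.76 and 5.44 with 25HC3S and 2.86, 2.66, 3.54, 3.13 and 3.03 with GW3965. The GW3965 libraries lay below all others but Vehicle replicate 4, and 25HC3S replicates 3, 4 and 5 were the highest of all. Its fall was -0.64 ± 0.10 against 25HC3S (adjusted p = 0.000218) and -0.43 ± 0.10 against 25HC (adjusted p = 0.0213), and it was not called against Vehicle (-0.28 ± 0.10, adjusted p = 0.0757). The call against 25HC was lost in 5 of 10 fits, those without 25HC replicate 3 or 4 or GW3965 replicate 1, 2 or 5 (adjusted p = 0.0526 to 0.0773). Against Vehicle it passed in the fits without Vehicle replicate 4 or 5 (adjusted p = 0.0290 to 0.0478) and without the 4 libraries (-0.38, adjusted p = 0.0212). Of all genes, 2.03% were called lower without Vehicle replicate 4 and 10.4% without Vehicle replicate 5.

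The GINS genes and Cdc7 were called in none of the comparisons with all 20 libraries. Gins2 stood at 4.03, 3.64, 1.93, 0.966 and 3.20 FPKM with vehicle, 3.43, 3.81, 4.19, 3.97 and 3.70 with 25HC, 1.41, 3.50, 4.00, 3.93 and 3.41 with 25HC3S and 2.24, 2.43, 2.43, 2.61 and 2.43 with GW3965. Vehicle replicates 3 and 4 and 25HC3S replicate 1 were below the lowest GW3965 library, and the rest of the 3 other groups lay above the highest. In the fit without the 4 libraries Gins2 fell in all 3 comparisons (-0.49 ± 0.06 against 25HC, adjusted p = 2.9e-05). Gins1 had 1 fragment in Vehicle replicate 3 (0.0442 FPKM), where the other libraries had 1.49 to 5.90 FPKM. In the fit without the 4 libraries Cdc7 was called in all 3 comparisons, Gins1 against 25HC and 25HC3S, and Gins3 and Gins4 against 25HC3S.

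The clamp Pcna encircles DNA and holds the polymerases, and Rfc1 to Rfc5 form the complex that loads it. Rfc5 fell in all 3 comparisons with GW3965 (-0.34 ± 0.06 against 25HC, adjusted p = 0.00485) and Pcna in none. Pcna, the most abundant member in the GW3965 libraries by FPKM, stood at 53.8, 52.1, 49.2, 44.9 and 56.9 FPKM with vehicle, 52.3, 49.9, 58.8, 57.2 and 56.3 with 25HC, 35.3, 49.4, 59.4, 57.8 and 49.7 with 25HC3S and 40.0, 41.8, 46.0, 45.7 and 46.1 with GW3965. The GW3965 libraries lay below all 25HC libraries, but 25HC3S replicate 1 was the lowest of all and Vehicle replicate 4 lay among them. The difference was -0.32 ± 0.11 from 25HC (adjusted p = 0.242) and -0.22 ± 0.11 from Vehicle (adjusted p = 0.166). Against 25HC3S it was -0.17 ± 0.11 (adjusted p = 0.621) and passed in the fit without 25HC3S replicate 1 (-0.29, adjusted p = 0.0495). Once the 4 libraries were left out Pcna was called in all 3, at -0.32 against 25HC (adjusted p = 0.00237).

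Rfc3 stood at 3.99, 3.11, 4.06, 3.11 and 3.68 FPKM with vehicle, 4.51, 3.71, 4.11, 3.24 and 3.95 with 25HC, 3.06, 4.66, 4.13, 4.61 and 4.02 with 25HC3S and 3.25, 3.01, 3.06, 2.87 and 3.00 with GW3965. The GW3965 libraries were close together and overlapped every other group. It was called in none of the comparisons with all libraries and came nearest against 25HC3S (-0.33 ± 0.09, adjusted p = 0.0501), where it passed without 25HC3S replicate 1 (-0.41, adjusted p = 0.00497). Rfc2 was likewise not called with all libraries and fell without the 4 (-0.23 against Vehicle, adjusted p = 0.0188).

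Rfc4 was among the 3 largest falls against Vehicle, at 5.64, 5.93, 9.04, 8.53 and 6.31 FPKM with vehicle, 5.54, 3.78, 6.57, 5.67 and 5.73 with 25HC, 5.40, 5.31, 5.19, 6.05 and 6.80 with 25HC3S and 4.01, 3.23, 4.39, 3.75 and 4.09 with GW3965. Vehicle replicates 3 and 4, both apart, were the highest of all 20 libraries. Its difference was -0.71 ± 0.13 (adjusted p = 0.00205) and, without the 4 libraries, -0.52 ± 0.14 (adjusted p = 0.0312). Against 25HC3S it was -0.46 ± 0.13 (adjusted p = 0.0421), a call that was lost in each of the 10 fits that left out 1 library of either group (adjusted p = 0.0534 to 0.128). Against 25HC it was not called (-0.39), except without 25HC replicate 2, its lowest library in that group (-0.49, adjusted p = 0.0429).

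Rfc1, the large subunit, fell against Vehicle (-0.44 ± 0.10, adjusted p = 0.0148), and its 3 highest libraries were Vehicle replicates 3 and 4 and 25HC3S replicate 1, at 14.1, 14.7 and 14.2 FPKM. When the 4 libraries were left out that difference was -0.27 ± 0.04 and still called (adjusted p = 0.000173). The GW3965 libraries of Rfc1 spanned 7.96 to 8.52 FPKM, below all 15 others.

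**Figure D3:**
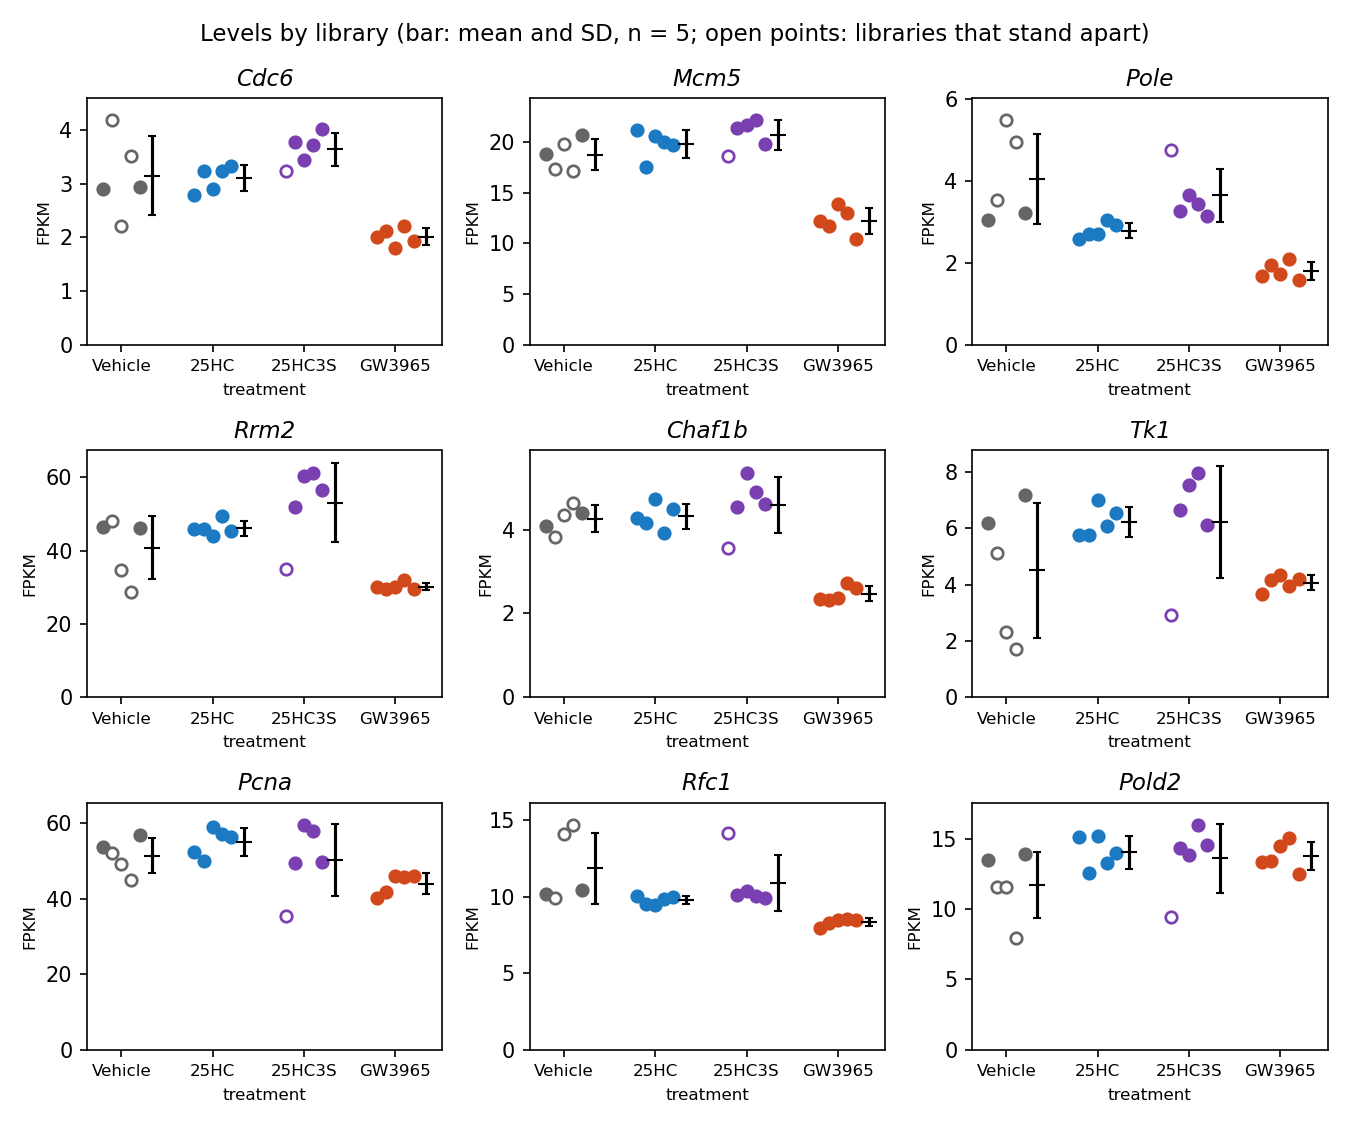
FPKM (y axis) of 9 of the genes in each library by treatment (x axis); bars give the mean and SD of 5 libraries and open points mark the libraries that stand apart. For Cdc6, Mcm5, Pole, Chaf1b and Rfc1 all GW3965 points lie below all others, for Tk1 and Pcna some open points lie as low or lower, and for Pold2 the groups overlap.

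Of the polymerase genes, Pola1, Pola2, Prim1 and Prim2 make the enzyme that starts each strand with a primer, Pold1 to Pold3 belong to the polymerase that extends the lagging strand, and Pole and Pole2 to that of the leading strand. Of these 9 genes none was called against 25HC, although 6 did not overlap there. Pole, Prim1 and Pola1 fell against both Vehicle and 25HC3S, and Prim2 and Pold1 fell against 25HC3S. Pole (chr5:110286306-110337474) had the largest fall of all 49 genes against Vehicle. It stood at 3.04, 3.53, 5.47, 4.94 and 3.21 FPKM with vehicle, 2.57, 2.69, 2.69, 3.03 and 2.92 with 25HC, 4.74, 3.25, 3.66, 3.42 and 3.14 with 25HC3S and 1.68, 1.94, 1.72, 2.09 and 1.57 with GW3965. The highest libraries were Vehicle replicates 3 and 4 and 25HC3S replicate 1, and the 25HC libraries lay between GW3965 and the rest.

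For Pole the difference was -0.82 ± 0.12 against Vehicle (adjusted p = 0.000236), -0.72 ± 0.12 against 25HC3S (adjusted p = 0.000589) and -0.43 ± 0.12 against 25HC (adjusted p = 0.0805). With the 4 libraries left out these were -0.56, -0.64 and -0.43, and all 3 were called (adjusted p of at most 0.000147).

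Pola1, the catalytic subunit of the primer-making polymerase, stood at 2.90, 4.65, 4.72, 5.88 and 3.12 FPKM with vehicle, 2.66, 2.51, 3.19, 3.24 and 2.99 with 25HC, 5.04, 2.97, 3.19, 3.38 and 3.05 with 25HC3S and 1.90, 1.95, 2.14, 2.09 and 2.47 with GW3965. All of the 4 libraries that stand apart were high, and the other 11 Vehicle, 25HC and 25HC3S libraries lay at 2.51 to 3.38 FPKM. Its fall was -0.73 ± 0.14 against Vehicle (adjusted p = 0.00326) with all libraries and -0.37 ± 0.08 without the 4 (adjusted p = 0.00984). Against 25HC3S it was -0.53 ± 0.14 (adjusted p = 0.0327), lost in 7 of 10 fits, those without 25HC3S replicate 1, 3 or 4 or GW3965 replicate 1, 2, 3 or 4 (adjusted p = 0.0506 to 0.0969).

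Pold1, the catalytic subunit of the lagging-strand polymerase, stood at 7.64, 9.28, 5.32, 5.54 and 8.93 FPKM with vehicle, 8.53, 7.17, 8.51, 7.97 and 8.16 with 25HC, 7.16, 8.34, 8.44, 8.36 and 8.61 with 25HC3S and 5.93, 6.06, 6.16, 5.69 and 5.01 with GW3965. Vehicle replicates 3 and 4 lay within the GW3965 range, and every other library of the 3 groups lay above it. Against 25HC3S Pold1 fell by 0.44 on the log2 scale (adjusted p = 0.0297), a call lost in the 8 fits without 25HC3S replicate 2, 3, 4 or 5 or GW3965 replicate 1, 2, 4 or 5 (adjusted p = 0.0510 to 0.0922). In the fit without the 4 libraries it was called in all 3 comparisons, with -0.46 against Vehicle (adjusted p = 0.000753).

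Prim1, the catalytic primase subunit, fell by 0.69 on the log2 scale against 25HC3S (adjusted p = 0.00112) and by 0.50 against Vehicle (adjusted p = 0.0174), the latter lost without GW3965 replicate 4 (adjusted p = 0.0537). Prim2, its partner, differed by -0.26 from Vehicle and passed there without Vehicle replicate 3 (-0.35, adjusted p = 0.0156) and without the 4 libraries (-0.34, adjusted p = 0.00615). Pole2 passed against Vehicle without Vehicle replicate 1 (-0.28, adjusted p = 0.0209). In that fit 11.2% of all genes were called lower, and Vehicle replicates 2, 3 and 4, which stand apart, were kept.

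Pold2, the small subunit of the lagging-strand polymerase, was the member that differed least from 25HC, at 15.1, 12.6, 15.2, 13.3 and 14.0 FPKM with 25HC and 13.4, 13.5, 14.5, 15.1 and 12.5 with GW3965. The difference was -0.02 ± 0.13 (95% interval -0.30 to 0.25), and against Vehicle it was 0.24 ± 0.13 (adjusted p = 0.203), above 0. With vehicle Pold2 stood at 13.5, 11.6, 11.6, 7.98 and 13.9 FPKM. The low values are those of Vehicle replicates 2, 3 and 4, which stand apart, and Vehicle replicates 1 and 5 lay within the GW3965 range.

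The genes that bind and join strands are Rpa1 to Rpa3, which coat single-stranded DNA, Fen1, which trims the flaps of lagging-strand fragments, and Lig1, which seals them. Lig1 and Rpa1 fell in all 3 comparisons with GW3965, and the other 3 in none. Lig1 stood at 13.4, 15.9, 11.7, 11.2 and 12.7 FPKM with vehicle, 12.2, 11.8, 13.4, 13.8 and 14.0 with 25HC, 15.0, 14.3, 14.2, 14.8 and 12.5 with 25HC3S and 8.09, 8.16, 9.85, 9.20 and 8.41 with GW3965. All GW3965 libraries lay below all others, with differences of -0.53 ± 0.08 from 25HC (adjusted p = 0.00115), -0.64 ± 0.08 from 25HC3S (adjusted p = 5.1e-05) and -0.51 ± 0.08 from Vehicle (adjusted p = 0.000807).

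Rpa1 fell by less, -0.26 ± 0.06 against 25HC (adjusted p = 0.0350). This call was lost in 9 of 10 fits, all but the one without GW3965 replicate 3 (adjusted p = 0.0640 to 0.130). Against Vehicle (-0.26) it was lost without GW3965 replicate 2 (adjusted p = 0.0662). Rpa2 stood at 8.57, 8.67, 4.67, 6.97 and 9.70 FPKM with vehicle, 10.1, 8.19, 9.55, 11.0 and 8.86 with 25HC, 7.83, 10.4, 10.9, 9.00 and 8.36 with 25HC3S and 6.43, 6.42, 6.47, 7.25 and 6.5 with GW3965. Vehicle replicate 3 was the lowest of all 20, and the GW3965 libraries lay below every 25HC and 25HC3S library. Rpa2 was not called against 25HC (-0.46 ± 0.13, adjusted p = 0.10) and was called in all 3 comparisons without the 4 libraries (adjusted p of at most 0.0159).

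Fen1 was at the edge of detection, with 25 to 59 fragments per library. It stood at 1.28, 1.46, 0.857, 0.870 and 0.790 FPKM with vehicle, 1.06, 1.02, 0.781, 1.22 and 0.830 with 25HC, 0.742, 0.886, 0.707, 1.06 and 0.612 with 25HC3S and 0.566, 0.610, 0.707, 0.837 and 1.38 with GW3965. The groups overlapped in every pair, and with GW3965 it differed by -0.18 ± 0.12 from Vehicle (95% interval -0.44 to 0.08). In the deposited coordinates Fen1 overlaps 156 bases of Tmem258 and 3253 bases of Gm10143, both on the other strand. The part of these overlaps in its low count was not tested.

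Nucleotide supply is represented by Rrm1 and Rrm2, the large and small subunits of ribonucleotide reductase, by Tyms, which makes thymidylate, by Tk1, which salvages thymidine, and by Dut, which removes dUTP. Both reductase subunits fell against 25HC and 25HC3S. Rrm2 (chr12:24708241-24714146) was the most abundant member with GW3965 after Pcna, and it had the largest fall against 25HC3S. It stood at 46.4, 48.1, 34.6, 28.8 and 46.2 FPKM with vehicle, 45.8, 45.9, 44.1, 49.4 and 45.3 with 25HC, 34.9, 51.9, 60.5, 61.2 and 56.6 with 25HC3S and 30.0, 29.6, 30.0, 31.9 and 29.4 with GW3965. The GW3965 libraries spanned 29.4 to 31.9 FPKM, and of the other 15 libraries only Vehicle replicate 4 was as low.

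Rrm2 differed by -0.77 ± 0.14 from 25HC3S (adjusted p = 0.00170) and by -0.60 ± 0.14 from 25HC (adjusted p = 0.0322). The latter call was lost in each of the 10 fits that left out 1 library of either group (adjusted p = 0.0626 to 0.0972), while the difference stayed between -0.61 and -0.57. Against Vehicle it was -0.40 ± 0.14 (adjusted p = 0.0836) and passed without Vehicle replicate 4 (-0.51, adjusted p = 0.0276). In the fit without the 4 libraries Rrm2 was called in all 3 comparisons, at -0.91, -0.60 and -0.60 in that order (adjusted p of at most 4.3e-06).

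Rrm1 stood at 11.4, 15.7, 15.2, 13.3 and 11.9 FPKM with vehicle, 11.1, 10.2, 12.4, 12.2 and 12.3 with 25HC, 13.4, 11.3, 13.6, 13.2 and 12.9 with 25HC3S and 7.91, 7.96, 9.05, 8.92 and 9.52 with GW3965. All GW3965 libraries lay below all others. Its fall was -0.58 ± 0.09 against Vehicle (adjusted p = 0.000309), where Vehicle replicates 2 and 3 were the highest libraries, and -0.38 ± 0.09 against 25HC (adjusted p = 0.0214). The call against 25HC was lost without 25HC replicate 3, 4 or 5 or GW3965 replicate 1 or 2 (adjusted p = 0.0692 to 0.0771).

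Tyms stood at 3.62, 2.73, 1.43, 2.21 and 3.12 FPKM with vehicle, 2.72, 3.25, 3.70, 3.07 and 3.52 with 25HC, 3.37, 3.53, 4.11, 3.79 and 3.74 with 25HC3S and 2.39, 1.91, 2.44, 2.29 and 1.78 with GW3965. Vehicle replicate 3 was the lowest library and Vehicle replicate 4 lay within the GW3965 range. Tyms fell against 25HC3S (-0.58 ± 0.13, adjusted p = 0.00931) and was not called against 25HC (-0.43 ± 0.13, adjusted p = 0.127) or Vehicle (-0.17 ± 0.13, adjusted p = 0.347). When the 4 libraries were left out it was called in all 3, with -0.47 against Vehicle (adjusted p = 0.00598).

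Tk1 was the member whose difference from Vehicle moved most when the 4 libraries were left out. It stood at 6.19, 5.11, 2.32, 1.69 and 7.20 FPKM with vehicle, 5.76, 5.76, 7.01, 6.10 and 6.54 with 25HC, 2.91, 6.64, 7.55, 7.97 and 6.12 with 25HC3S and 3.66, 4.18, 4.35, 3.93 and 4.18 with GW3965. Vehicle replicates 3 and 4 and 25HC3S replicate 1 were the 3 lowest of all 20 libraries, whereas the remaining Vehicle, 25HC and 25HC3S libraries all lay above the GW3965 range. The difference from Vehicle was 0.01 ± 0.26 with all libraries (adjusted p = 0.987) and -0.60 ± 0.09 without the 4 (adjusted p = 0.000463). Against 25HC, where the groups did not overlap, it was -0.51 ± 0.26 and not called (adjusted p = 0.724), and without the 4 libraries, with the same 10 values but a narrower spread, it was called (adjusted p = 8.8e-05).

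Dut stood at 11.5, 17.3, 7.03, 5.93 and 13.2 FPKM with vehicle, 12.4, 11.7, 12.1, 13.0 and 11.2 with 25HC, 7.11, 11.2, 14.5, 13.7 and 10.5 with 25HC3S and 9.72, 9.58, 10.5, 11.3 and 8.98 with GW3965. It was called in none of the comparisons with all libraries and showed a difference of -0.25 ± 0.21 from 25HC (95% interval -0.69 to 0.19). It passed, once the 4 libraries were left out, against 25HC (adjusted p = 0.0487) and 25HC3S (adjusted p = 0.0270).

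The last role is the copying of chromatin and DNA methylation and the repair that goes with it. Uhrf1 recognises half-methylated DNA behind the fork and recruits Dnmt1, the maintenance methyltransferase, Chaf1a and Chaf1b place new histones, Slbp stabilises histone messages, and Ung removes uracil from DNA. Uhrf1, Dnmt1 and Chaf1b fell in all 3 comparisons with GW3965, and Chaf1a against 25HC3S. Chaf1b stood at 4.08, 3.82, 4.36, 4.65 and 4.40 FPKM with vehicle, 4.29, 4.16, 4.73, 3.93 and 4.49 with 25HC, 3.55, 4.55, 5.36, 4.89 and 4.61 with 25HC3S and 2.34, 2.33, 2.36, 2.72 and 2.60 with GW3965. Its GW3965 libraries, at 2.33 to 2.72 FPKM, lay well below the lowest other library at 3.55. Its difference was -0.61 ± 0.08 from 25HC (adjusted p = 9.4e-05), -0.68 ± 0.08 from 25HC3S (adjusted p = 9.8e-06) and -0.60 ± 0.08 from Vehicle (adjusted p = 7.1e-05).

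Uhrf1 stood at 16.8, 16.3, 12.0, 11.3 and 17.7 FPKM with vehicle, 17.6, 15.0, 16.5, 16.8 and 18.0 with 25HC, 15.0, 19.5, 19.3, 19.2 and 17.9 with 25HC3S and 10.3, 9.88, 11.8, 11.9 and 10.9 with GW3965. Vehicle replicate 4 lay within the GW3965 range, Vehicle replicate 3 just above it, and the other 13 libraries clearly above. Its fall was -0.57 ± 0.11 against 25HC (adjusted p = 0.00552) and -0.39 ± 0.11 against Vehicle (adjusted p = 0.0405). The latter call was lost in the 6 fits without Vehicle replicate 2 or any one of the 5 GW3965 libraries (adjusted p = 0.0569 to 0.0999), and without the 4 libraries it was -0.61 ± 0.07 (adjusted p = 3.9e-05).

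Dnmt1 stood at 17.8, 19.9, 14.4, 13.3 and 18.2 FPKM with vehicle, 17.6, 16.8, 18.4, 19.1 and 18.7 with 25HC, 18.5, 18.8, 20.2, 19.2 and 17.7 with 25HC3S and 12.5, 12.2, 13.5, 13.3 and 13.3 with GW3965. The GW3965 libraries lay below all others but Vehicle replicate 4. It fell by 0.45 on the log2 scale against 25HC (adjusted p = 0.00471) and by 0.33 against Vehicle (adjusted p = 0.0251), the latter lost without GW3965 replicate 1 or 2 (adjusted p = 0.0664 to 0.0702). Chaf1a was not called against Vehicle (-0.31, adjusted p = 0.0637) and passed there without Vehicle replicate 3 or 4 (adjusted p = 0.0225 to 0.0411) and without all 4 libraries (-0.39, adjusted p = 0.00501).

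Slbp stood at 6.44, 9.70, 5.27, 4.17 and 6.47 FPKM with vehicle, 7.07, 6.17, 6.11, 6.59 and 6.79 with 25HC, 4.88, 6.36, 7.21, 7.72 and 6.76 with 25HC3S and 4.87, 4.5, 5.00, 5.22 and 5.55 with GW3965. It was not called with all libraries (-0.32 ± 0.14 against 25HC, adjusted p = 0.526), although the 25HC and GW3965 libraries did not overlap. Ung stood at 2.26, 2.09, 1.16, 1.35 and 2.19 FPKM with vehicle, 2.07, 2.05, 1.96, 2.20 and 1.99 with 25HC, 2.21, 2.42, 2.08, 2.15 and 2.07 with 25HC3S and 1.54, 1.61, 1.69, 1.55 and 1.49 with GW3965. Vehicle replicates 3 and 4 were the lowest libraries, and the GW3965 libraries lay below the remaining 13. Ung differed by -0.25 ± 0.10 from 25HC (adjusted p = 0.402), and without the 4 libraries both genes were called in all 3 comparisons.

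Across roles, 16 of the 49 genes had all 5 GW3965 libraries below all 15 others: Cdc6, Mcm3, Mcm4, Mcm5, Mcm6, Mcm7, Mcm10, Rfc1, Rfc5, Pola1, Prim1, Pole, Rpa1, Lig1, Rrm1 and Chaf1b. The same held for 1.42% of all tested genes. Set against the 11 other libraries that do not stand apart, it held for 34 of the 49 and for 3.07% of all tested genes.

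The oxysterols were each compared with Vehicle. With 25HC, 0 of the 49 genes rose and 0 fell by limma, where 0.0314% of all genes were called higher and 0.00784% lower. At an unadjusted p under 0.05 there were 8 members, of 3863 genes in all. The median difference was 0.07, against 0.03 over all genes, with 32 above and 17 below 0. The voom method on recovered whole fragments also called 0 members. With the 4 libraries left out, 0 were called (0.0157% of all genes called higher and 0.00784% lower) and the median turned to -0.03, against 0.00 over all genes. In 1 gene, Pole, every 25HC library lay below every Vehicle library (0.918% of all genes), at -0.39 ± 0.12 (adjusted p = 0.147), and at -0.13 without the 4 libraries.

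Leaving out a single Vehicle library changed these counts. Without Vehicle replicate 1, 5 members were called lower (Mcm6, Rfc4, Pola1, Pole and Rrm1) and 2 higher (Mcm2 and Tyms), but 9.52% of all genes were then called lower and 11.3% higher, so these shares of the 49 are near the background or under it. With Vehicle replicate 5 left out, Pola1 and Pole were called lower and Mcm2 higher, beside 7.35% and 9.00% of all genes. The adjusted p of these calls lay between 0.0328 and 0.0498. In both fits the libraries that stand apart made up 3 of the 4 Vehicle libraries left.

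With 25HC3S, 0 of the 49 genes rose and 0 fell against Vehicle, where 0.463% of all genes were called higher and 1.14% lower. There were 7 members at an unadjusted p under 0.05, of 2183 genes in all, and voom on whole fragments called 0. The median was 0.13, against 0.02 over all genes, with 38 above 0. The members nearest to a call were Cdc45 (0.36 ± 0.10, adjusted p = 0.0703) and Tyms (0.41 ± 0.13, adjusted p = 0.133). There were 4 members that passed when 1 library was left out: Cdc45 without Vehicle replicate 1 or 25HC3S replicate 1, Tyms without Vehicle replicate 1, Mcm2 without Vehicle replicate 5 and Rrm2 without 25HC3S replicate 1 (0.51, adjusted p = 0.0241).

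In the fit without the 4 libraries, Rrm2 (0.30 ± 0.06, adjusted p = 0.00696) and Cdc6 (0.27 ± 0.07, adjusted p = 0.0405) were called higher with 25HC3S than with vehicle, where 1.33% of all genes were, and 2.63% were called lower. In that fit the median of the 49 genes was 0.07, against 0.01 over all genes.

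25HC3S and 25HC differ by the sulfate on the 3 position and were given at the same dose of 20 µM for the same time, so this pair of compounds could be compared at matched dose. GW3965 was given at 2 µM, so its comparisons with the sterols set different doses side by side. With all libraries, 0 of the 49 genes differed between 25HC3S and 25HC by limma, beside 0.659% of all genes lower and 0.157% higher with the sulfate. There were 4 members at an unadjusted p under 0.05, of 908 genes in all, and voom on whole fragments called 0. The median was 0.06, against 0.00 over all genes. The members' differences ranged from -0.23 to 0.29. For Mcm5 the 95% interval was -0.10 to 0.22, for Cdc6 -0.02 to 0.38, for Rrm2 -0.12 to 0.47 and for Tk1 -0.59 to 0.49, and a missed threshold does not show that the 2 compounds act alike on these genes.

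The differences farthest above 0 were those of Pole (0.29 ± 0.12, 95% interval 0.04 to 0.54), Prim1 (0.26) and Cdc45 (0.21), and the farthest below was that of Gins2 (-0.23). In Pole and Prim2 every 25HC3S library lay above every 25HC library, which held for 3.27% of all genes. Without 25HC3S replicate 1 and the 3 Vehicle libraries, 4 members were called higher with 25HC3S than with 25HC, where 2.49% of all genes were, and 4.7% were called lower. They were Rrm2 (0.31 ± 0.04, adjusted p = 0.000493), Cdc6 (0.21 ± 0.05, adjusted p = 0.0277), Pole (0.21 ± 0.06, adjusted p = 0.0460) and Prim2 (0.21 ± 0.06, adjusted p = 0.0365).

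Rrm2 shows the pattern most plainly, since the 4 remaining 25HC3S libraries stood at 51.9 to 61.2 FPKM, above the 44.1 to 49.4 FPKM of the 25HC libraries, while 25HC3S replicate 1 stood at 34.9. Leaving out any single library of these 2 groups, 25HC3S replicate 1 included, gave 0 calls among the 49 genes. Among the fits that left libraries out, calls in this comparison appeared only when all 4 were left out together. With all 20 libraries, a fit with library weights called 6 members higher with 25HC3S than with 25HC (2.84% of all genes).

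**Figure D4:**
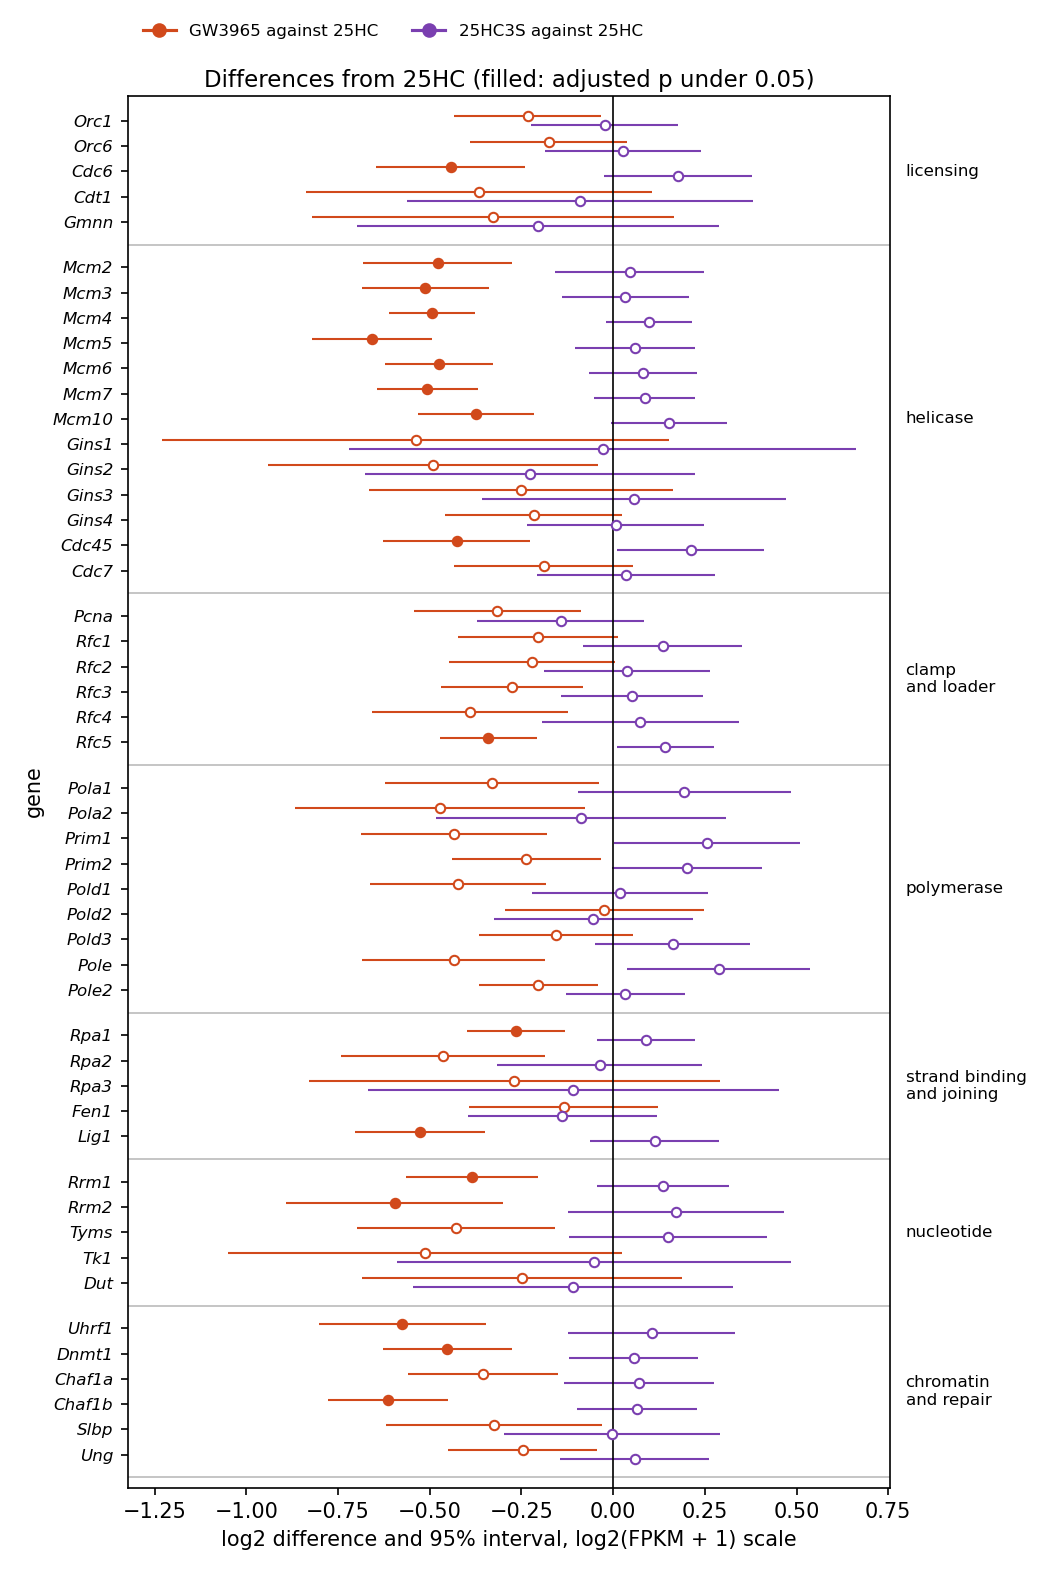
log2 difference from 25HC (x axis, log2(FPKM + 1) scale) with its 95% interval for each of the 49 genes (y axis, by role), with GW3965 in orange and 25HC3S in purple; filled points are called at an adjusted p under 0.05. All GW3965 points lie below 0 and 17 are filled, whereas the 25HC3S points lie between -0.23 and 0.29 and none is filled; both differences share the 25HC libraries.

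The 4 libraries differed from one another in how they held these genes. Set against the libraries of their own group that do not stand apart, the 49 genes had a median log2 difference of 0.03 in Vehicle replicate 2, -0.20 in Vehicle replicate 3, -0.28 in Vehicle replicate 4 and -0.18 in 25HC3S replicate 1, where the median over all genes lay between -0.06 and 0. The spread around it was wide. In Vehicle replicate 4 it ran from -1.51 for Tk1 to 0.78 for Pola1, and in 25HC3S replicate 1 from -1.04 for Tk1 to 0.54 for Pola1. Over the 49 genes Spearman's rho of this difference with gene length was 0.19, 0.27 and 0.47 in Vehicle replicates 3 and 4 and 25HC3S replicate 1, and 0.38, 0.36 and 0.38 over all genes tested. These are correlations across genes of 1 library, which share its preparation, and the part of gene length in the results was not tested. With a trend on gene length taken out of every library, 24 members fell against Vehicle (3.89% of all genes called lower), 20 against 25HC (1.19%) and 26 against 25HC3S (2.36%).

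**Figure D5:**
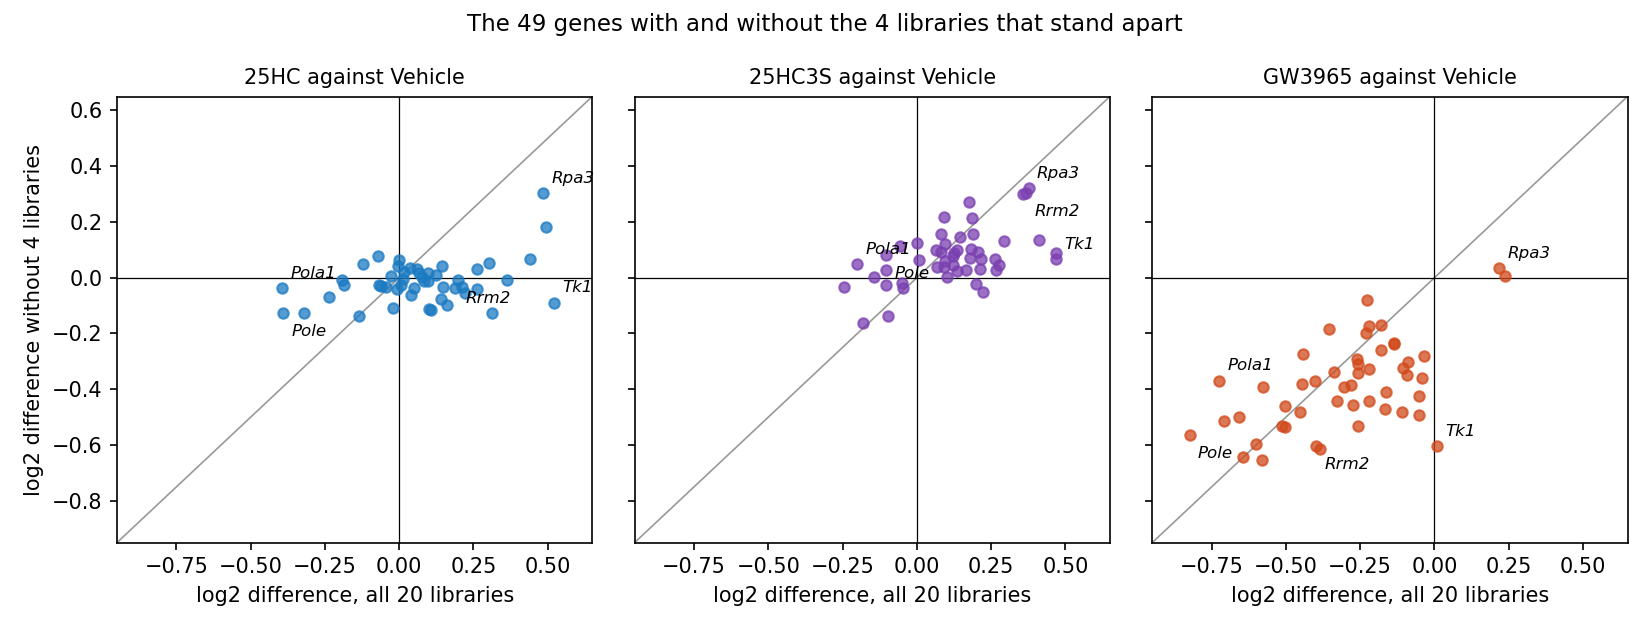
log2 difference of each of the 49 genes from Vehicle with all 20 libraries (x axis) and without the 4 that stand apart (y axis), for 25HC, 25HC3S and GW3965; the diagonal marks equal values. The 25HC points spread along the x axis from -0.40 to 0.52 and along the y axis from -0.14 to 0.30, and the GW3965 points lie below 0 on the y axis except Rpa3 and Pold2, with Tk1 moving from 0.01 to -0.60.

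Other genes of the pathway were taken from lists beside the 49. Of 37 other replication factors tested, 15 fell (2.97% of all genes) and 0 rose with GW3965 against Vehicle (median -0.27). Against 25HC 9 fell (0.894%) and 0 rose, and against 25HC3S 14 fell (2.13%) and 0 rose. With the 4 libraries left out these counts were 14 (3.79%), 20 (6.82%) and 24 (8.59%) lower and 0 higher. In that fit 6 of the 37 were called higher with 25HC3S than with 25HC (2.49%). Clspn, which carries the checkpoint signal from stalled forks, stood at 3.91, 4.68, 3.84, 3.45 and 4.15 FPKM with vehicle, 3.66, 3.92, 3.91, 4.28 and 4.18 with 25HC, 4.53, 4.76, 5.15, 5.34 and 4.72 with 25HC3S and 2.48, 2.39, 2.35, 2.33 and 2.67 with GW3965. The GW3965 libraries lay below all others, with differences of -0.53 ± 0.07 from 25HC (adjusted p = 7.0e-05) and -0.54 ± 0.07 from Vehicle (adjusted p = 4.2e-05). Pclaf, a Pcna-binding factor, fell by 0.64 on the log2 scale against 25HC (adjusted p = 0.000302), beside -0.32 for Pcna itself.

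Of other nucleotide enzymes, 32 were tested, and their median difference with GW3965 against Vehicle was -0.07. Dck, a deoxynucleoside salvage kinase, fell with GW3965, with differences of -0.38 ± 0.09 from Vehicle (adjusted p = 0.0158) and -0.36 ± 0.09 from 25HC (adjusted p = 0.0421). Dctd and Nme2 rose against Vehicle (0.36 and 0.62), and both were lowest in Vehicle replicates 2, 3 and 4, with Nme2 at 1.31, 0.415, 0.629, 0.109 and 1.54 FPKM in Vehicle replicates 1 to 5. Both calls were lost when the 4 libraries were left out, at 0.06 (adjusted p = 0.729) for Dctd and 0.13 (adjusted p = 0.651) for Nme2. In that fit 0 of the list rose against Vehicle, 1 rose against 25HC (Tk2, 0.14) and 2 against 25HC3S (Tk2, 0.11, and Cmpk1, 0.13). The shares of all genes called higher there were 3.98%, 6.3% and 9.27%. Counts of the list called lower are not given, because 1 of its genes is not reported here. The median of the list in that fit was -0.08 against Vehicle, -0.04 against 25HC and -0.12 against 25HC3S.

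Of 32 regulators of the step from G1 to S, 8 fell (2.97% of all genes) and 2 rose (3.49%) with GW3965 against Vehicle (median -0.12). Without the 4 libraries 11 fell (3.79%) and 4 rose (3.98%). Ccna2, the S-phase cyclin, stood at 10.3, 11.1, 13.9, 12.9 and 10.8 FPKM with vehicle, 10.3, 8.78, 10.3, 11.6 and 12.4 with 25HC, 11.5, 9.72, 12.5, 12.8 and 13.2 with 25HC3S and 5.45, 5.68, 5.79, 6.58 and 8.26 with GW3965. Every GW3965 library lay below every other library, and Ccna2 fell by 0.80 on the log2 scale against Vehicle (adjusted p = 0.000157) and by 0.67 against 25HC (adjusted p = 0.00160). E2f7 and E2f8, E2F family repressors that are themselves cell-cycle genes, fell by 0.35 and 0.42 against Vehicle, at -0.45 and -0.55 without the 4 libraries. E2f1, an activator, stood at 13.0, 11.8, 5.5, 7.12 and 11.8 FPKM with vehicle and 9.15, 8.74, 10.9, 10.3 and 8.33 with GW3965, with Vehicle replicates 3 and 4 the lowest of these. Its difference from Vehicle was 0.01 ± 0.18 (adjusted p = 0.977) with all libraries and -0.36 ± 0.09 (adjusted p = 0.0206) without the 4, where it was called lower against 25HC and 25HC3S as well. Ccne2, a cyclin of the G1 to S step, fell by 0.92 against Vehicle, where its highest Vehicle libraries were replicates 3 and 4 (15.1 and 12.2 FPKM), and without the 4 libraries the difference was -0.54 ± 0.10 (adjusted p = 0.00289).

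The regulators that rose against Vehicle with all libraries were 2 inhibitors of cyclin kinases. Cdkn2b, which inhibits the G1 kinases Cdk4 and Cdk6, stood at 35.0, 38.1, 21.1, 20.2 and 30.8 FPKM with vehicle, 38.2, 36.6, 38.6, 40.6 and 38.1 with 25HC, 17.6, 30.1, 29.7, 32.0 and 31.6 with 25HC3S and 60.4, 66.8, 62.6, 66.1 and 60.5 with GW3965. Its GW3965 libraries lay above all others. Cdkn2b was higher by 1.14 ± 0.16 than Vehicle (adjusted p = 0.000216) and by 0.70 ± 0.16 than 25HC (adjusted p = 0.0270). Cdkn1a, which inhibits cyclin kinases and binds Pcna, rose by 0.49 ± 0.10 over Vehicle (adjusted p = 0.00617), and against 25HC its difference of 0.19 ± 0.10 was not called (adjusted p = 0.840). Its 3 lowest Vehicle libraries were those that stand apart, and when they and 25HC3S replicate 1 were left out it rose by 0.24 ± 0.06 over Vehicle (adjusted p = 0.0156) and by 0.19 ± 0.04 over 25HC (adjusted p = 0.00875). Cdkn1c, another inhibitor of cyclin kinases, fell against Vehicle with GW3965 (-0.73, and -0.39 without the 4) and with 25HC3S (-0.82, and -0.69). In the fit without the 4 it also fell with GW3965 against 25HC (-0.34) and was higher than with 25HC3S (0.30). The regulators that joined those called higher against Vehicle there were Cdkn2a (0.44) and E2f5 (0.33).

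Mitosis genes, whose promoters differ in the letters counted above, were lower with GW3965 as well. Of 32 tested, 23 fell against Vehicle (median -0.54), 13 against 25HC (median -0.52) and 24 against 25HC3S (median -0.68), and 0 rose. Of all genes 2.97%, 0.894% and 2.13% were called lower there. With the 4 libraries left out 28 (3.79%), 31 (6.82%) and 32 (8.59%) fell and 0 rose. In that fit 9 of the 32 were called higher with 25HC3S than with 25HC (2.49%). Top2a, which untangles copied chromosomes, fell by 1.06 on the log2 scale against Vehicle (adjusted p = 0.000257), where Vehicle replicates 3 and 4 were its highest libraries, and by 0.66 against 25HC (adjusted p = 0.0301). Left without the 4 libraries, its difference from Vehicle was -0.67 ± 0.09 (adjusted p = 0.000249). Birc5 (survivin) had the largest fall of this list against 25HC (-0.75). The medians of the mitosis genes lay below those of the 49 genes in these comparisons, and that difference was not tested.

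Markers of the cells in the cultures were read from lists. Where a count has no share beside it, the share of all genes is the one given above for the same comparison and libraries. All 10 chondrocyte markers passed the filter, with a summed level of 1647 to 5004 FPKM with vehicle, 3631 to 3988 with 25HC, 2339 to 3657 with 25HC3S and 3837 to 4763 with GW3965. None of the 10 was called in any of the 6 comparisons with all libraries. Without the 4 libraries, 2 (Col2a1 and Col11a2) rose (3.98% of all genes) and 1 (Matn1) fell (3.79%) with GW3965 against Vehicle. Against 25HC 2 rose (6.3%) and 4 fell (6.82%), and against 25HC3S 3 rose (9.27%) and 0 fell (8.59%). In the same fit 2 fell with 25HC3S against Vehicle (2.63%) and 4 against 25HC (4.7%).

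Macrophage markers were present too, 13 of 14 passing, with sums of 445 to 1065 FPKM with vehicle, 739 to 1049 with 25HC, 396 to 765 with 25HC3S and 936 to 1088 with GW3965. Of these 13, 2 (Adgre1 and Mrc1) fell with GW3965 against Vehicle and 1 (Mrc1) against 25HC, and against 25HC3S 5 rose and 1 (Cd14) fell. With 25HC3S 3 fell (Adgre1, Fcgr1 and Mrc1) and 1 (Cd14) rose, both against Vehicle and against 25HC. With the 4 libraries left out, 7 fell and 1 rose with 25HC3S against Vehicle (median of the 13, -0.67), and 8 fell and 1 rose against 25HC (median -0.60). With GW3965, Adgre1 was no longer called against Vehicle (-0.34, adjusted p = 0.0767), 1 rose and 1 fell against 25HC, and 9 rose and 1 fell against 25HC3S.

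Of 10 markers of synovial lining, fibroblasts and tendon 9 passed, with sums of 577 to 906 FPKM with vehicle and 601 to 641 with GW3965, and 0 were called with all libraries. Without the 4, 1 (Dpt) fell with GW3965 against Vehicle (-0.39, against 0.40 with all libraries), 2 fell and 1 rose against 25HC, and 1 fell and 4 rose against 25HC3S, while 25HC3S had 3 lower and 1 higher than Vehicle and 2 lower and 1 higher than 25HC. Of 6 osteoblast and osteocyte markers 3 passed, with sums of 72.4 to 119 FPKM. Those called were 0 with all libraries and, without the 4, Ibsp (lower than 25HC with GW3965 and with 25HC3S) and Bglap (lower with GW3965 than with 25HC3S). Of 5 adipocyte markers 3 passed, with Lep at 0 in all 20 libraries. Of these, Adipoq was lower with 25HC3S than with 25HC and with GW3965, and without the 4 libraries Adipoq and Fabp4 were lower with 25HC3S than in each of the other groups. Endothelial markers summed to at most 6.07 FPKM in any library. Erythroid and neutrophil markers summed to at most 0.999 FPKM, and 2 of their 7 genes (Hbb-bs and Hba-a1) were at 0 in all 20 libraries. The part of these cells in the levels of the replication genes was not tested.

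Some members share their place in the genome with other genes. In the deposited coordinates, 24 of the 49 overlap another gene, and for 9 of them that gene is itself among those tested and on the other strand, as with Mcm7 and Cops6, Rfc4 and Eif4a2, or Cdc45 and Ufd1. No source used here states the strand setting of the counting, so reads of such pairs may be shared, and the levels of these 9 genes are uncertain to that extent. Other members overlap genes that were not tested. Cdt1 shares 5540 bases with Gm20388 and Pole2 2495 with Gm49384, each on its own strand. Tk1 shares 10567 bases with Gm20708 on the other strand. Levels of such members may be uncertain too, and the effect of the overlaps was not tested.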

How the data were processed

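Total RNA of mouse articular chondrocytes was sequenced in 20 libraries (4 groups of 5). Extraction used Trizol, per the labels' protocols. The tools named per the submitters' processing notes are HISAT2 2.0.5 and CASAVA 1.8. Which program counted, on which strand and with which genome build, is not given in the sources used here. The authors deposited one table of FPKM per gene with coordinates and gene lengths. For 48 of the 49 genes the coordinates equal those of GENCODE M21 (GRCm38). FPKM times gene length gave whole multiples of one step per library (100% of values within 0.02), from which fragments were worked out. Fragments from PCR are not independent molecules.

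FPKM are not counts, so limma 3.58.1 in R 4.3.3 was run on log2(FPKM + 1), with one mean per group over all 20 libraries, moderation along a trend and two-sided tests adjusted by Benjamini-Hochberg over 12752 genes in each of 6 comparisons. The test was also run on simulated data for GW3965 against Vehicle (12752 genes, 200 changed), with 7 false calls. It recovered 50 of 50 genes halved to 0.5 and 40 of 50 lowered to 0.67. Of genes raised to 1.5 times it recovered 46 of 50, and of those raised to 2 times 49 of 50. These rates describe the simulated libraries only. Whether they hold for the measured Vehicle group, with its libraries that stand apart, was not tested. The members and lists were chosen with earlier results of these data known. Library values are given for 26 genes chosen to represent the roles, and for the 3 largest called changes of a comparison. They are also given for Clspn, Ccna2, E2f1, Cdkn2b, Nme2 and Pold2, for which no rule was set beforehand. Gene lists hold replication factors, nucleotide enzymes, regulators of G1 to S, mitosis genes and markers of chondrocytes, macrophages, synovial cells, endothelium, bone cells, adipocytes, and erythroid cells and neutrophils. Alternatives were pseudocounts of 0.1 and 5, no filter or FPKM of at least 5, only the 2 groups compared, a replicate block, median ratio scaling, library weights and leaving out each library. Chosen after seeing the data were leaving out 4 libraries, voom on recovered fragments, and removal of a trend on gene length. Results for 1 gene of the nucleotide list are not reported here.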

Additional observations from a re-analysis of the deposited data

Results flagged for a closer look

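In groups of 5 libraries, a library was singled out where its gap to the nearest other, divided by the range of the group, exceeded 0.71 (Dixon's critical value). Over 108 groups of values 6 did so, and chance alone singles out about 1 group in 20. Of the 6, 4 lie in 25HC3S replicate 1, one of the libraries that stand apart. There Cdt1 stood at 5.25 FPKM (nearest other 25HC3S library 9.29), Gins2 at 1.41 (3.41) and Pold1 at 7.16 (8.34), all low. In the same library Pola1 stood at 5.04 FPKM (nearest 3.38), high. The other 2 lie in GW3965 replicate 4, where Rpa2 stood at 7.25 FPKM (nearest 6.5) and Rrm2 at 31.9 FPKM (nearest 30.0), both high and still below every 25HC library.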

How the results depend on the processing

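Under all planned and added alternatives, 0 members were called higher with GW3965 in any comparison. The counts of members called lower moved with the setting. The share of all tested genes called the same way moved too, and follows each count. Against Vehicle, 20 (2.97%) became 10 with only the 2 groups compared (0.533%), 12 of 29 tested with a filter of FPKM at least 5 (2.84%), 39 with library weights (4.85%) and 37 without the 4 libraries that stand apart (3.79%). Against 25HC, 17 (0.894%) became 40 with only the 2 groups (5.87%), 43 with library weights (6.98%) and 41 without the 4 libraries (6.82%). Against 25HC3S, 25 (2.13%) became 14 with the filter (1.63%), 45 with library weights (8.91%) and 45 without the 4 libraries (8.59%). With library weights 4 members were called higher with 25HC3S than with vehicle (2.22% of all genes higher, 3.81% lower) and 6 higher than with 25HC (2.84% and 5.42%), and without the 4 libraries 2 (1.33% and 2.63%) and 4 (2.49% and 4.7%). Fewer genes tested explain the smaller counts with the filter, and the cause of the others was not tested. Leaving out 1 library gave 16 to 22 lower for GW3965 against Vehicle (1.69% to 11.2% of all genes). It gave 12 to 16 against 25HC (0.541% to 0.745%) and 22 to 25 against 25HC3S (1.59% to 1.94%). For 25HC against Vehicle it gave 0 to 5 lower (0% to 9.52%) and 0 to 2 higher (0.00784% to 11.3%). For 25HC3S against Vehicle it gave 0 to 2 higher (0.18% to 2.66%). With a replicate block the counts were 16 (2.09%), 15 (0.784%) and 23 (1.82%) for GW3965 against Vehicle, 25HC and 25HC3S, and 0 otherwise. Between libraries of equal number, deviations from the group mean correlated above 0.1 in 4 of 30 pairs (-0.70 to 0.27). Of 20 libraries, 4 correlated best with their own number. The 4 libraries that stand apart enter these group means, so the correlations cannot tell whether equal numbers share an animal or culture. Tk1 against Vehicle, at 0.01, became -0.59 with library weights and -0.60 without the 4 libraries. Of values for called members under the alternatives, 1170 kept their call, 108 lost it and 0 reversed. Fen1 had only 25 to 59 fragments in a library, and the cause of that low count was not tested.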
